A study of Mus musculus with 13 samples.

Results

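Chemokines are small secreted proteins that guide the movement of cells, above all leukocytes, and act through receptors that couple to inhibitory G proteins. A few further receptors, called atypical, bind chemokines without G protein signaling and remove or redistribute them. In skin, keratinocytes, fibroblasts, endothelium and resident leukocytes all make chemokines, and some of these genes are also used by epithelial cells for their own migration and survival. The genes described here are all rows of the expression table whose symbols name a chemokine (Ccl, Cxcl, Xcl or Cx3cl), a chemokine receptor (Ccr, Cxcr, Xcr or Cx3cr) or an atypical receptor (Ackr), with Ccrl2 included. This rule took 64 of the 21100 genes listed, namely 40 ligands, 19 signaling receptors and 5 genes counted with the atypical receptors (Ackr1 to Ackr4 and Ccrl2).

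RNA sequencing of poly(A) RNA covered 13 mouse basal cell carcinomas (BCC), 1 library each, from female mice. The 9 genetically engineered tumors (GEM-BCC, GEM1 to GEM9) grew intradermally in 7 Ptch1+/- K14-CreERT2 p53fl/fl mice (K14-CreER2 in the sample labels), in which tamoxifen (3 intraperitoneal injections of 300 µg) activates Cre in cells that use the keratin 14 promoter and deletes p53 there, and which also received 1 X-ray irradiation of 4 Gy. GEM2 and GEM3 shared a mouse, as did GEM7 and GEM8. The 4 transplantable tumors (Tp-BCC, TP1 to TP4) grew subcutaneously in the right flank of 4 Ptch1+/- p53fl/fl mice without Cre after inoculation of 2000000 passaged tumor cells, and all of them descend from 1 GEM-BCC tumor, so that they stand for a single tumor lineage. All mice carried the Ptch1+/- and p53fl/fl alleles; mouse ages are not given in the sources used here. GEM-BCC libraries form batch 1 and Tp-BCC libraries batch 2 in the labels. No tamoxifen or X-ray irradiation is given there for the Tp-BCC tumors. Model, batch, tumor site, host Cre, tamoxifen, X-ray irradiation, passaging and library depth therefore cannot be told apart. Total expected counts were 28075317 to 32629102 per GEM-BCC library and 15388027 to 17494912 per Tp-BCC library. Levels are given as CPM, counts per 1000000 counts of a library after TMM scaling, and differences as log2 fold changes of Tp-BCC over GEM-BCC from an edgeR quasi-likelihood fit to all 14390 genes that could be tested, with p-values adjusted over all of them. A gene passed at an adjusted p under 0.05 and was called if its absolute log2 fold change also exceeded 2. As a check of the tissue, none of the 8 tested markers of basal keratinocytes and BCC (such as Krt14 and Gli1) passed in edgeR, 4 had an unadjusted p under 0.05 and Ptch1 passed in DESeq2. Their summed level was 12300 to 18100 CPM (GEM-BCC) and 9440 to 21800 CPM (Tp-BCC). The counts of GEM1, TP2 and TP4 rose with the GC content of transcripts (Spearman correlation across genes 0.364 to 0.593), whereas those of the other 10 tumors fell with it.

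Of the 64 genes, 58 had a value in all 13 tumors, 5 had values in the GEM-BCC tumors alone (Ccr4, Cxcl15, Cxcr1, Cxcl11 and Ccl21c) and Ccl26 had none. The limit for a test, 10 or more counts in 4 or more tumors, was met by 38 genes. Among the 20 genes with values that fell under this limit, Ccr1l1, Ccr8, Xcl1, Cxcl5, Cxcl17 and Cxcl13 had at most 3 counts in every tumor. When all libraries were thinned to the same total of 15388023 counts, 25.1 ± 5.04 (SD, n = 9) of the 58 genes reached 10 counts in a GEM-BCC tumor and 27.7 ± 2.12 (SD, n = 4) in a Tp-BCC tumor. This difference of 2.57 genes was within the spread between tumors (exact 2-sided permutation test, p = 0.354). In GEM-BCC the number ran from 20 in GEM1 to 34.1 in GEM5.

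The comparison of the models asks how far the transplanted tumors keep the expression of their parental model. In it 9 chemokine system genes passed. In Tp-BCC tumors the receptor Cxcr4, the scavenging receptor Ackr2 and the ligands Ccl6 and Ccl11 rose, whereas the epithelial ligands Ccl28, Ccl27a and Cxcl14, the stromal ligand Cxcl12 and the scavenging receptor Ackr4 fell. The 4 genes that rose are 10.5% of the 38 tested, against 11.1% of all tested genes, and the 5 that fell are 13.2%, against 8.35%. With the fold threshold, Ackr2, Ccl6 and Ccl11 were called higher (7.89% of the 38, against 2.36% of all genes) and Ccl28 and Ccl27a lower (5.26%, against 3.21%). The values of the models did not overlap for 3 genes that were higher in Tp-BCC (7.89%, against 5.5% of all genes) and for 2 that were lower (5.26%, against 4.45%). Ccl28 is in each of these counts of lower genes and met the limit for a test through GEM-BCC tumors alone. The median log2 fold change was −0.08 over the 38 genes and −0.03 over all genes. In bulk tumor RNA, fewer cells of a type and less RNA per cell cannot be told apart. At an unadjusted p under 0.05 stood 15 of the 38 genes, of which 6 did not pass after adjustment. Cxcr4, Ackr2, Ccl28 and Ackr4 passed in each of the 13 fits that left out 1 tumor, and the other 5 did not.

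**Figure D1:**
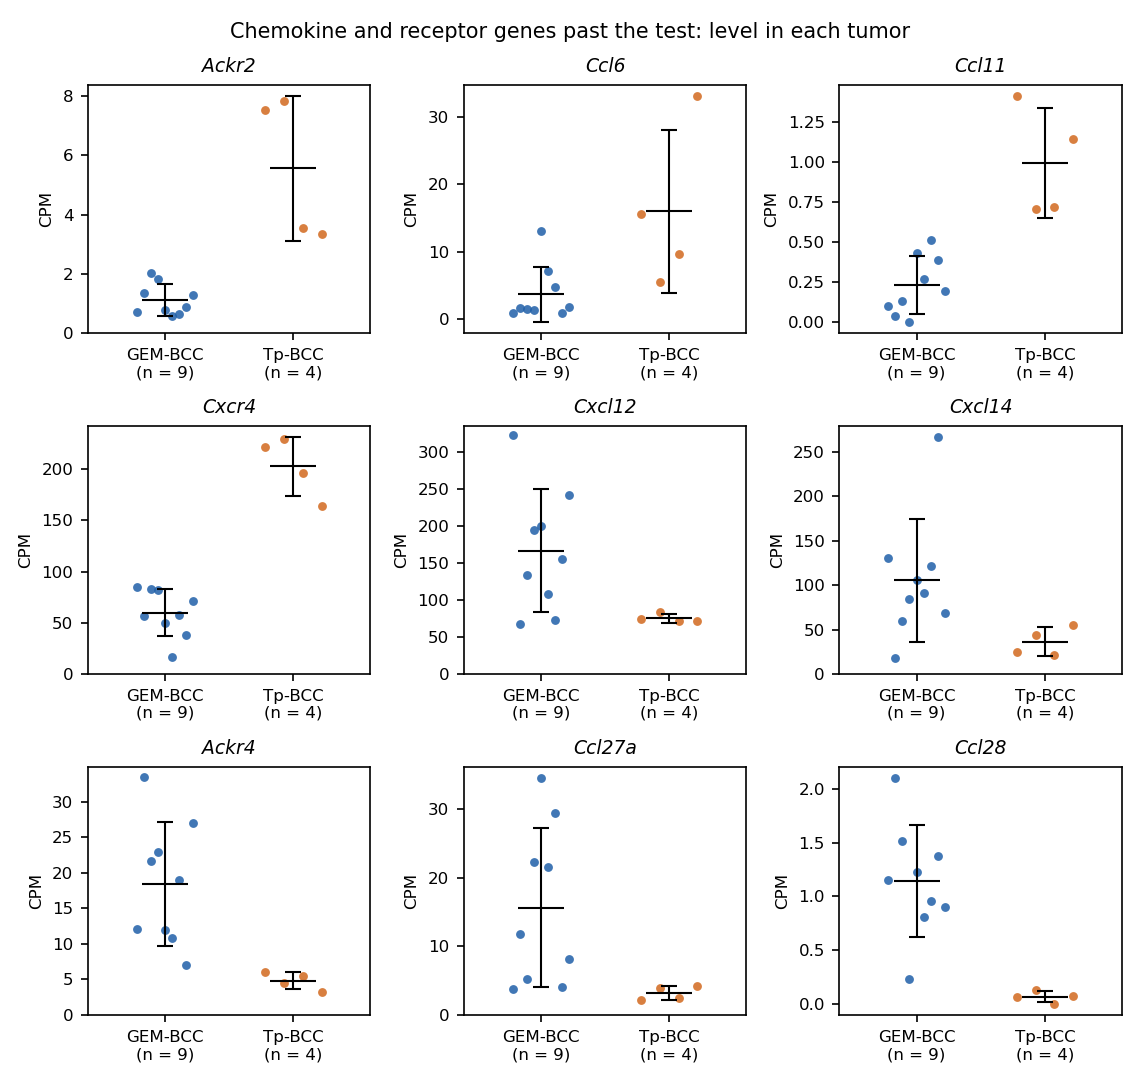
Level in CPM (y axis, linear) of the 9 genes that passed, in each GEM-BCC (blue, n = 9) and Tp-BCC tumor (orange, n = 4), with mean and SD as horizontal line and error bar. The 4 Tp-BCC tumors lie between 164.6 and 229 CPM for Cxcr4, above every GEM-BCC tumor, and between 0 and 0.129 CPM for Ccl28, below every GEM-BCC tumor.

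The stromal axis consists of Cxcl12, a ligand made by fibroblasts and endothelium, its signaling receptor Cxcr4, which serves leukocytes and stem cells and is used by many carcinoma cells, and Ackr3, an atypical receptor that takes up Cxcl12. Cxcr4 was at 221 CPM in TP1, 229 in TP2, 196 in TP3 and 164.6 in TP4. In GEM-BCC it ranged from 16.4 CPM in GEM6 over a median of 57.7 to 85.02 in GEM1. Every Tp-BCC tumor was therefore above every GEM-BCC tumor. The means were 59.9 ± 23.1 CPM (SD, n = 9) and 203 ± 29.2 CPM (SD, n = 4), and the log2 fold change was 1.76 (SE 0.31, adjusted p = 0.0013).

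Cxcl12 moved the other way. It was at 74.2, 84.1, 72.0 and 71.4 CPM in TP1 to TP4, and in GEM-BCC from 67.6 CPM in GEM2 over a median of 156 to 323 in GEM1. The Tp-BCC tumors were close together and at the low end of the GEM-BCC range, with GEM7 (72.7 CPM) among them and GEM2 below them. The log2 fold change was −1.14 (SE 0.37, adjusted p = 0.0418), and it did not pass when GEM4, GEM5, GEM8, GEM9 or any 1 of the Tp-BCC tumors was left out (−1.23 to −1.06, adjusted p = 0.0526 to 0.0847) or with a correction for GC content (−0.88). Ackr3 did not pass: it was at 40.7, 36.6, 31.7 and 23.4 CPM in TP1 to TP4 and at 18.5, 40.9 and 76.6 CPM as the lowest, median and highest GEM-BCC values (log2 fold change −0.36, SE 0.33, adjusted p = 0.468).

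Since Cxcl12 and Cxcr4 moved in opposite directions, their counts were also divided within each library, a pair chosen after the values had been seen and given without a test. The ratio of Cxcl12 to Cxcr4 counts was 0.335, 0.367, 0.367 and 0.434 in TP1 to TP4. In GEM-BCC it was lowest in GEM2 at 1.2 and GEM7 at 1.26 and highest in GEM6 at 6.64. The ratio of every GEM-BCC tumor was thus above that of every Tp-BCC tumor. As the pair was picked for its opposite change, this separation adds no support to the values of the single genes. The Cxcl12 and Cxcr4 counts were not divided by transcript length (median 3132 bases for Cxcl12 and 1353 for Cxcr4). The ratio therefore compares tumors and does not say which gene had more transcripts in a tumor. Among markers of cells known for these genes, Cdh5, Kdr and Emcn of 7 endothelial markers rose, with a summed level of 97.5 to 231 CPM per GEM-BCC tumor and 280 to 356 CPM per Tp-BCC tumor. Of 7 fibroblast markers, Pdgfra and Pdgfrb rose and Col1a1 fell (summed level 12100 to 49100 against 15700 to 28300 CPM). The part of these cells in the Cxcr4 and Cxcl12 values was not tested.

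**Figure D2:**
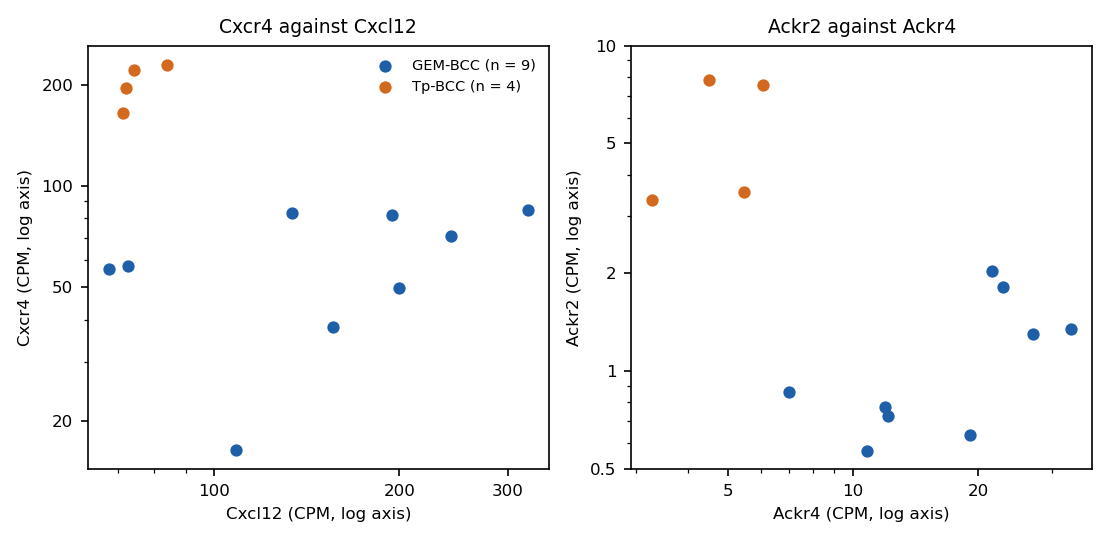
Each point is a tumor (GEM-BCC blue, n = 9; Tp-BCC orange, n = 4), with Cxcr4 plotted against Cxcl12 on the left and Ackr2 against Ackr4 on the right, in CPM on log axes. In both panels the Tp-BCC tumors lie in the upper left corner, apart from all GEM-BCC tumors. The pairs were chosen after the values had been seen.

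The atypical receptors showed the same kind of opposition. Ackr2, which scavenges inflammatory CC chemokines and is best known from lymphatic endothelium, was at 7.54, 7.84, 3.53 and 3.36 CPM in TP1 to TP4. Its GEM-BCC values ran from 0.568 CPM in GEM6 over a median of 0.862 to 2.02 in GEM3, below every Tp-BCC tumor. Its log2 fold change was 2.32 (SE 0.4, adjusted p = 0.00113). Ackr4, which scavenges Ccl19, Ccl21 and Ccl25, was at 6.06, 4.5, 5.45 and 3.28 CPM in TP1 to TP4, and in GEM-BCC from 6.99 CPM in GEM8 over a median of 19.1 to 33.4 in GEM2. Here every Tp-BCC tumor was below every GEM-BCC tumor (log2 fold change −1.93, SE 0.41, adjusted p = 0.0044). The count ratio of Ackr4 to Ackr2, again chosen after the values had been seen, was 8.11 or more in every GEM-BCC tumor (up to 29.9) and 0.574 to 1.54 in the Tp-BCC tumors. Neither gene overlapped between the models, so this separation follows from their single values and adds no support to them.

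Ackr1, the atypical receptor of red blood cells and venules, and Ccrl2, a presenting receptor of the chemokine-like protein chemerin, did not pass. Ackr1 had at most 0.836 CPM in any tumor (log2 fold change 1.08, SE 0.6, adjusted p = 0.218). Ccrl2 was at 0.706, 0.257, 0.718 and 0.357 CPM in TP1 to TP4 and at 0.159, 0.725 and 0.841 CPM as the lowest, median and highest GEM-BCC values (log2 fold change −0.33, SE 0.48, adjusted p = 0.66). Of 4 markers of lymphatic endothelium, Flt4 rose (log2 fold change 1.43). Lyve1 (0.83), Pdpn (−0.06) and Prox1 (−1.41) did not pass and differed in direction. The summed level of the 4 was 8.65 to 33.8 CPM per GEM-BCC tumor and 25.3 to 40.1 CPM per Tp-BCC tumor. The part of these cells in the Ackr2 and Ackr4 values was not tested.

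The promoters of the 4 genes that passed in each fit that left out 1 tumor and of Cxcl12 are shown because these genes moved in opposite directions. They are the 250 bases before the annotated start, from RefSeq on build GRCm38.p6, written 5′ to 3′ along the gene, and capitals mark matches on either strand to any of 5 motifs. The TATA box was searched as TATAAA. The GC box was searched as GGGCGG. The AP-1 site was searched as TGACTCA. A kappaB-like site was searched as GGNNTTTCC and the core of a Gli site as GGGTGGTC.
Cxcr4, chr1:128592300-128592549, minus strand: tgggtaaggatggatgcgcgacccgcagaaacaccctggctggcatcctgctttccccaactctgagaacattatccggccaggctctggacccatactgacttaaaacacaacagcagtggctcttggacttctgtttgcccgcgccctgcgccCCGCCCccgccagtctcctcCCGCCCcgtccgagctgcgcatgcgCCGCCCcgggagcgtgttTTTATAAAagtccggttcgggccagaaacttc
Cxcl12, chr6:117168285-117168534, plus strand: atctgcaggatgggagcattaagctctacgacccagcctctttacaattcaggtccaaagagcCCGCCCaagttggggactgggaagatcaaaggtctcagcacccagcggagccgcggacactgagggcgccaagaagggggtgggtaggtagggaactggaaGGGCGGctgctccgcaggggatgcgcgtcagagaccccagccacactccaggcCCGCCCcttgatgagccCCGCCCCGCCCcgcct
Ackr2, chr9:121898105-121898354, plus strand: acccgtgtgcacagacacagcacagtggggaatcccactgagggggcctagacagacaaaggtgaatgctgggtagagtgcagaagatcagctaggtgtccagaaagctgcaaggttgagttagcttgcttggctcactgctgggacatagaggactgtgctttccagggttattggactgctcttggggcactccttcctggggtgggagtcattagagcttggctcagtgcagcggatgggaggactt
Ackr4, chr9:104126644-104126893, minus strand: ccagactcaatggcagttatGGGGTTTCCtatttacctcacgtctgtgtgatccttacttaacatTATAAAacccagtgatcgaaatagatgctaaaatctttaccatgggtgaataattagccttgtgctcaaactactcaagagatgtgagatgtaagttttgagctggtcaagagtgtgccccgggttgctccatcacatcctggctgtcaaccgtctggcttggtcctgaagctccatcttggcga
Ccl28, chr13:119623569-119623818, plus strand: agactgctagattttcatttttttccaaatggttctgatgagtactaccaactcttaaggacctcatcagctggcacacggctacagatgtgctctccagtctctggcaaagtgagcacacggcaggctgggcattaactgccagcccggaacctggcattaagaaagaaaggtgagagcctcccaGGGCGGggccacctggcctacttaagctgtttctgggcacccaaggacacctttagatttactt

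In these windows Cxcr4 had a TATA match whose first base was 30 bases before the start, on a stretch that also reads as a match on the other strand at −32, with GC boxes at −95, −75 and −50. Cxcl12 had 5 GC boxes, at −187, −86, −33, −16 and −11, the last pair overlapping by 1 base, and no TATA match. Ccl28 had 1 GC box at −64, Ackr4 had a TATA match at −185 and a kappaB-like match at −230, and Ackr2 had no match. The RefSeq promoter table held 48 of the 64 genes and 8 of the 9 that passed (Ccl11 is not among them). A kappaB-like match was found in 10 of these 48 promoters (20.8%), among them Cxcl1, Cxcl2, Cxcl3, Cxcl9, Cxcl10 and Ccl20, and in 4.93% of all 32851 promoters. TATA matches were found in 27.1% and 12.4%, GC boxes in 16.7% and 32.7% and AP-1 matches in 6.25% and 4.46%. No member had a match to the Gli core, which 0.703% of all promoters hold. Each of the 48 genes counts with its first listed start, whereas all promoters were counted without reducing genes to 1 start. A match is a description of letters and says nothing of binding.

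In the epithelial and mucosal group the genes that passed in the main fit were ligands that fell. The ligands Ccl27b, Ccl25 and Cxcl16 were higher in Tp-BCC without passing there, but Ccl25 and Cxcl16 passed with the correction for GC content. Of the 12 genes of this group 8 were tested. In the main fit 3 fell (against 8.35% of all tested genes), none rose and 5 did not pass. Ccl28, a ligand of Ccr10 and Ccr3 made by mucosal and glandular epithelium, was near the floor of detection in Tp-BCC, with 1, 2, 0 and 1 counts in TP1 to TP4. In GEM-BCC it had 7 counts in GEM4 and 27 to 58 in the other 8 tumors, so it met the limit for a test through GEM-BCC tumors alone. In CPM this was 0.231, 1.15 and 2.11 as the lowest, median and highest GEM-BCC values, all above the highest Tp-BCC value of 0.129. The fitted log2 fold change was −4.06 (SE 0.73, adjusted p = 0.00146). At so few counts the fitted value depends on the prior count, and the ratio of depth-scaled summed counts (319 in GEM-BCC against 4 in Tp-BCC) was 17.9 with a 95% interval of 6.92 to 66.1 that covers counting error only.

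Ccl27a, the keratinocyte ligand that draws Ccr10-bearing T cells to skin, was at 2.12, 3.92, 2.45 and 4.21 CPM in TP1 to TP4. In GEM-BCC it ran from 3.72 CPM in GEM1 over a median of 11.7 to 34.5 in GEM5. GEM1 and GEM8 (4.02 CPM) overlapped with the Tp-BCC tumors, while GEM4 to GEM7 were all above 21 CPM. The log2 fold change was −2.30 (SE 0.64, adjusted p = 0.0205), and it did not pass without TP1 (−2.14, adjusted p = 0.0571) or without TP2 (−2.46, adjusted p = 0.0504). Ccl27a and Ccl27b both had fractional counts, so some reads were divided between genes. The longest GENCODE vM21 transcripts of these genes had 0% of 100-base words in common. Other transcripts were not compared, so whether Ccl27a and Ccl27b shared reads with each other is not known. Ccl27b was higher in Tp-BCC without passing (1.32, SE 0.63, adjusted p = 0.149), and with both genes summed the log2 fold change was −1.73 and did not pass (adjusted p = 0.0518).

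Cxcl14, an epithelial and stromal ligand abundant in skin, was at 24.8, 44.4, 21.5 and 55.6 CPM in TP1 to TP4 and at 18.3 CPM in GEM2, a median of 91.8 and 267.5 in GEM8. Apart from GEM2, every GEM-BCC tumor was above every Tp-BCC tumor. The log2 fold change of −1.53 (SE 0.51, adjusted p = 0.0474) was close to the threshold, and it did not pass without GEM1, any of GEM4 to GEM9, TP1, TP2 or TP3 (−1.66 to −1.22, adjusted p = 0.0528 to 0.109). Cxcl16, a ligand that exists in a membrane-bound form, was at 13.6, 16.1, 21.8 and 16.1 CPM in TP1 to TP4 and at 4.06, 9.49 and 18.9 CPM as the lowest, median and highest GEM-BCC values (0.74, SE 0.32, adjusted p = 0.115). Ccl25, a ligand of Ccr9, was higher in Tp-BCC without passing in the main fit (1.18, SE 0.43, adjusted p = 0.0655). It passed with the correction for GC content (1.23, adjusted p = 0.0318) and without GEM1, TP2 and TP4 (1.63, adjusted p = 0.0273). The receptors Ccr10 (−0.50) and Ccr9 (−0.54) had at most 1.25 and 0.633 CPM in any tumor.

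Ccl20 and its receptor Ccr6, Cxcr6 and Cxcl17 were not tested. Cxcr6 reached 28 counts in GEM5 and at most 1 in a Tp-BCC tumor, and Ccl20 reached 24 and 6 counts. Of 4 suprabasal keratinocyte markers Krt10 fell (Krt1 and Krtdap also passed in DESeq2), and the summed level was 9.74 to 158 CPM per GEM-BCC tumor and 6.65 to 10.6 CPM per Tp-BCC tumor. The highest sums, 158 CPM in GEM4 and 142 in GEM7, fell in tumors with 22.3 and 29.3 CPM of Ccl27a, whereas the lowest, 9.74 in GEM8, stood beside 4.02 CPM. The order of the sums was not that of Ccl27a throughout, as GEM5 and GEM6 had 34.5 and 21.5 CPM of Ccl27a at sums of 57.3 and 29.1 CPM, and GEM2 and GEM9 had 11.7 and 8.18 CPM at sums of 46.0 and 41.6 CPM. The part of differentiated keratinocytes in the ligand values was not tested.

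**Figure D3:**
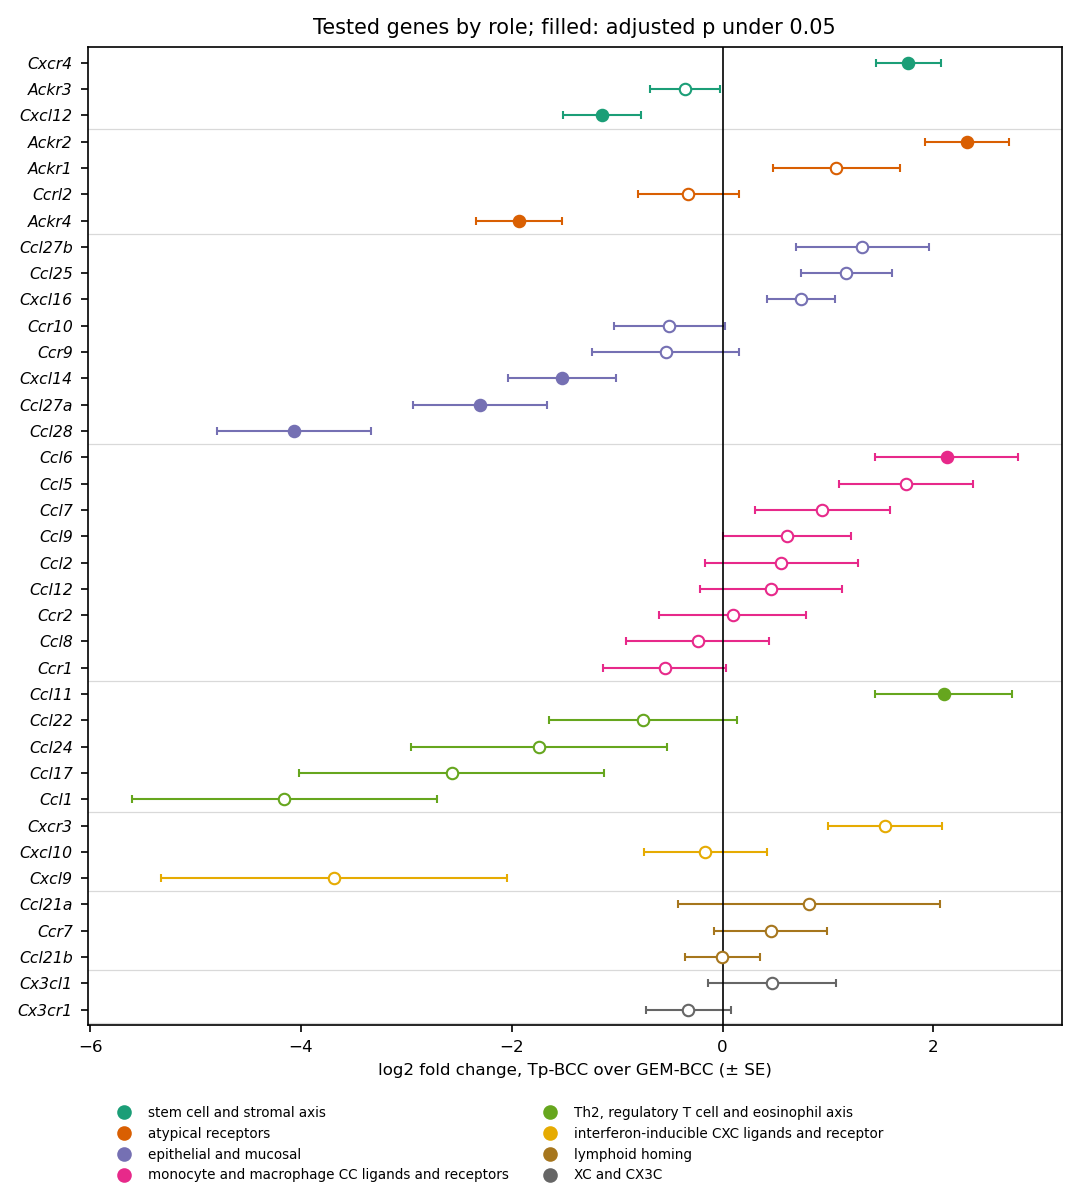
Log2 fold change of Tp-BCC over GEM-BCC (x axis) with its SE for 37 of the 38 tested genes, grouped and colored by role, with filled symbols for an adjusted p under 0.05. The epithelial group runs from 1.32 for Ccl27b to −4.06 for Ccl28, and the 3 filled symbols in it all lie below 0.

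Ligands and receptors of monocytes and macrophages formed the largest group, 13 genes of which 10 were tested. Ccl6, a ligand that mouse myeloid cells produce, rose and the other 9 did not pass. It was at 15.5, 5.47, 9.7 and 33.2 CPM in TP1 to TP4, and in GEM-BCC from 0.798 CPM in GEM8 over a median of 1.67 to 13.03 in GEM5. Of the GEM-BCC tumors, GEM5 and GEM6 (7.15 CPM) overlapped with the Tp-BCC range. On the log2 scale the rise was 2.12 (SE 0.68, adjusted p = 0.0387). It did not pass when GEM1 to GEM4, GEM7, GEM8, GEM9, TP1 or TP4 was left out (adjusted p = 0.052 to 0.221), was lowest without TP4 (1.44) and did not pass with counts summed per mouse (1.97).

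Ccl8 and Ccl9 are further monocyte attractants. Ccl8 was at 6.3, 4.69, 5.93 and 27.5 CPM in TP1 to TP4 and at 2.4, 7.1 and 28.7 CPM as the lowest, median and highest GEM-BCC values (−0.24, SE 0.68, adjusted p = 0.832). TP4 stood apart from the other Tp-BCC tumors, at the level of GEM5, GEM6 and GEM7 (26.7 to 28.7 CPM). Ccl9 was at 5.53, 1.29, 4.31 and 5.85 CPM in TP1 to TP4 and at 0.56, 1.74 and 7.69 CPM as the lowest, median and highest GEM-BCC values (0.61, SE 0.61, adjusted p = 0.498). Ccl5, a T cell and monocyte attractant, was higher in Tp-BCC without passing (1.74, SE 0.63, adjusted p = 0.0652). The log2 fold changes of Ccl2, Ccl7 and Ccl12 were 0.56, 0.95 and 0.46, and those of the receptors Ccr1 and Ccr2 were −0.55 and 0.10. Ccl3 and Ccl4 had at most 13 and 8 counts in a tumor. Of 11 macrophage markers Cd68 rose, and the summed level was 121 to 466 CPM per GEM-BCC tumor and 268 to 468 CPM per Tp-BCC tumor. The highest sums, 466 CPM in GEM6 and 468 in TP4, came from tumors with 26.7 and 27.5 CPM of Ccl8, and the lowest, 121 CPM in GEM4, from one with 3.86. Other tumors did not follow this order, since GEM7 had 27.4 CPM of Ccl8 at a sum of 179 CPM, and TP1 and TP3 had 6.3 and 5.93 CPM at sums of 329 and 336 CPM. The part of macrophages in these values was not tested.

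Among 9 genes of the Th2, regulatory T cell and eosinophil axis 5 were tested. Ccl11 (eotaxin), which draws eosinophils through Ccr3, rose, with 24, 11, 12 and 16 counts in TP1 to TP4 against 0 to 16 in GEM-BCC at about double the depth. In CPM it was at 1.41, 0.707, 0.718 and 1.14 in Tp-BCC, above the GEM-BCC range of 0 in GEM4 over a median of 0.194 to 0.509 in GEM7. The log2 fold change was 2.10 (SE 0.65, adjusted p = 0.0338), and it did not pass without GEM1, GEM3, GEM9, TP1, TP2 or TP4 (1.88 to 2.20, adjusted p = 0.0504 to 0.0885).

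The other 4 ligands of this axis had lower means in Tp-BCC but did not pass, and their GEM-BCC values were spread widely. Ccl22, a ligand of Ccr4, was at 1.24, 1.86, 0.778 and 2.78 CPM in TP1 to TP4 and at 0.127, 1.62 and 10.1 CPM as the lowest, median and highest GEM-BCC values (−0.76, SE 0.89, adjusted p = 0.574). Ccl24, another eotaxin, was at 0.412, 0.193, 0.239 and 0.857 CPM in TP1 to TP4 (−1.75, SE 1.21, adjusted p = 0.324). In GEM-BCC it reached 6.97 CPM in GEM5 and 4.07 in GEM7 and stayed between 0.0659 and 0.42 in the other 7. Ccl17, which shares Ccr4 with Ccl22, was at 4.94 CPM in GEM5 and at most 0.658 in any other tumor (−2.57, SE 1.45, adjusted p = 0.221). Ccl1, the ligand of Ccr8, had 104 counts over the GEM-BCC tumors and 1 count, in TP1, over the Tp-BCC tumors. Its fitted log2 fold change of −4.16 (SE 1.45) did not pass (adjusted p = 0.055), and the ratio of depth-scaled summed counts was 23.3 with a 95% counting interval of 4.1 to 930. The receptor genes were near the floor: Ccr3 had at most 13 counts, Ccr8 at most 3 and Ccr4 at most 10, the last with values in GEM-BCC alone.

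None of the 3 tested interferon-inducible genes passed in edgeR or DESeq2, and Cxcl9 and Cxcr3 had an unadjusted p under 0.05. Cxcl9, which attracts Cxcr3-bearing T cells, was at 148 CPM in GEM2, against 0.319 to 10.7 CPM in the other GEM-BCC tumors and 1.35, 1.35, 0.778 and 2.71 in TP1 to TP4. The log2 fold change of −3.68 (SE 1.64, adjusted p = 0.125) rested on that tumor and was −1.29 without GEM2 (adjusted p = 0.353). GEM3, from the same mouse as GEM2, had 0.443 CPM. Cxcl10 was at 0.706, 0.257, 0.12 and 0.143 CPM in TP1 to TP4 and at 0.128, 0.327 and 0.789 CPM as the lowest, median and highest GEM-BCC values (−0.16, SE 0.59, adjusted p = 0.868), so GEM2 did not stand out for it (0.327 CPM). Cxcr3 was at 0.471, 0.772, 0.359 and 1.0 CPM in TP1 to TP4 and at 0.0647, 0.192 and 0.543 CPM as the lowest, median and highest GEM-BCC values (1.54, SE 0.54, adjusted p = 0.0563). Of 10 T cell markers 3 could be tested and none passed or had an unadjusted p under 0.05 (summed level 5.9 to 16.4 CPM per GEM-BCC tumor and 5.57 to 13.3 CPM per Tp-BCC tumor).

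In the lymphoid homing group, which guides dendritic and T cells to lymph nodes, 3 of 8 genes were tested and none passed in edgeR or DESeq2 or had an unadjusted p under 0.05. Ccr7 was at 0.589, 1.09, 1.02 and 2.29 CPM in TP1 to TP4 and at 0.297, 0.618 and 1.85 CPM as the lowest, median and highest GEM-BCC values (0.46, SE 0.54, adjusted p = 0.572). Its ligand gene Ccl21a was the most uneven of the 38 tested genes among GEM-BCC tumors (SD of log2 CPM 3.37), with 0 in GEM4 and GEM6, 56.8 CPM in GEM3 and 2.94, 31.1, 4.49 and 40.6 CPM in TP1 to TP4 (0.82, SE 1.24, adjusted p = 0.67). Ccl21b, a related copy, was at 4.36, 7.91, 3.59 and 11.3 CPM in TP1 to TP4 and between 3.13 and 9.82 CPM with a median of 6.7 in GEM-BCC (−0.00, SE 0.35, adjusted p = 0.996). In the longest GENCODE vM21 transcripts, 15.4% of the 100-base words of Ccl21a occur in Ccl21b. Of the words of Ccl21b, 39.3% occur in Ccl21a. The counts of the copies were fractional, so how reads were divided among them is uncertain. Ccl21d had 38.7 counts and Ccl21c 55.3 in GEM3, the tumor with the highest Ccl21a value. Ccl19, Cxcl13 and Cxcr5 had at most 14, 3 and 4 counts in a tumor.

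Cx3cl1, a membrane-bound ligand, and its receptor Cx3cr1, a marker of resident macrophages and Langerhans cells, did not pass in edgeR or DESeq2, and neither had an unadjusted p under 0.05. Cx3cl1 was at 36.3, 53.6, 25.5 and 75.96 CPM in TP1 to TP4 and from 5.67 CPM in GEM4 over a median of 26.7 to 129.6 in GEM1 (0.47, SE 0.61, adjusted p = 0.611). Cx3cr1 was at 3.12, 4.37, 4.01 and 1.93 CPM in TP1 to TP4 and at 2.1, 3.26 and 7.3 CPM as the lowest, median and highest GEM-BCC values (−0.33, SE 0.4, adjusted p = 0.592). Xcl1 and Xcr1 had at most 2 and 5 counts in a tumor.

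No neutrophil-attracting gene met the limit for a test. Cxcl1 reached 22 counts in a GEM-BCC and 8 in a Tp-BCC tumor, Cxcr2 reached 18 and 1, and Cxcl2, Cxcl3 and Cxcl5 had at most 5. In the fit without a filter, which took all 58 genes with a value in every tumor, no neutrophil-attracting gene passed. At so few counts, whether these genes differed between the models cannot be told. Of the 6 testable neutrophil markers S100a8 (−3.60) and S100a9 (−3.27) fell, at a mean below 1 CPM in either model. Camp (−2.95) passed in DESeq2 but not in edgeR. Csf3r (0.13), Mmp9 (0.19) and Il1r2 (0.745) were higher in Tp-BCC and passed in neither. The summed level was 5.46 to 25.0 CPM per GEM-BCC tumor and 10.7 to 18.3 CPM per Tp-BCC tumor.

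Levels can be compared between genes only per length of transcript. Divided by the median length of their transcripts in GENCODE vM21, the highest levels in GEM-BCC were those of Cx3cl1 (73.4 CPM per kb), Cxcl14 (64.0), Cxcl12 (53.2), Cxcr4 (44.3) and Ccl27a (30.7). In Tp-BCC the order was Cxcr4 (149.8 CPM per kb), Cx3cl1 (102), Cxcl12 (24.1), Ccl21a (22.7) and Cxcl14 (22.2). The ranges of neighbors in the GEM-BCC order overlapped, while in Tp-BCC Cxcr4 at 122 to 169 CPM per kb overlapped with Cx3cl1 (54.3 to 162) alone. With the longest transcript as length, Cx3cl1 came 9th in GEM-BCC and 6th in Tp-BCC, since its transcripts have a median of 470 bases and reach 3315, whereas Cxcr4 stayed first in Tp-BCC (112 CPM per kb).

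GEM-BCC tumors differed strongly among themselves. The SD of log2 CPM had a median of 1.03 in GEM-BCC and 0.73 in Tp-BCC over the 38 genes, and it was larger in GEM-BCC for 31 of them (81.6%). Over all 14390 genes the medians were 0.44 and 0.58, and the SD was larger in GEM-BCC for 37.2%. The Tp-BCC libraries differed in their correlation with GC content (−0.389 in TP1, −0.472 in TP3, 0.593 in TP2, 0.587 in TP4). Among GEM-BCC libraries GEM1 alone was positive (0.364). The part of this GC trend in the SDs was not tested. GEM5 held the highest GEM-BCC value of 13 of the 38 genes (34.2%, against 7.34% of all genes) and GEM6 that of 9 (23.7%, against 8.18%). GEM4 held the lowest value of 9 and GEM8 of 8. The genes highest in GEM5 included Ccl5, Ccl6, Ccl8, Ccl9, Ccl17, Ccl22, Ccl24 and Ccl27a, and those in GEM6 Ccl2, Ccl7, Ccl12, Ccr1 and Ccr7. The summed level of 7 pan-leukocyte markers was 86.0 CPM in GEM5, 81.0 in GEM6 and 17.4 to 66.7 in the other GEM-BCC tumors, with the lowest in GEM4. It was 40.1 to 44.4 CPM in TP1 to TP3 and 100 in TP4, the tumor with the highest Ccl5, Ccl6, Ccl8, Ccr7 and Cxcl9 values among the Tp-BCC tumors, and none of the 7 markers passed in edgeR (2 had an unadjusted p under 0.05 and Cytip passed in DESeq2). The part of leukocyte content in these values was not tested. Of other cells that a tumor piece could hold, dendritic cell markers had 2 of 5 tested genes higher in Tp-BCC (Zbtb46 and Batf3), and no marker of mast cells (4 tested), Langerhans cells (2 tested) or B cells (1 tested) passed, although the mast cell gene Cpa3 had an unadjusted p under 0.05 and passed in DESeq2. The 2 Langerhans cell markers stood at unlike levels. Cd207 was near the floor (mean 0.359 CPM in GEM-BCC and 0.24 in Tp-BCC) and Epcam far above it (154 and 135 CPM). No NK cell marker could be tested, and Gzma, Pax5 and Clec9a had at most 3 counts in every tumor. All 3 tested adipocyte markers rose in edgeR and 1 of them, Fabp4, passed in DESeq2 (summed level 0.4 to 3.26 CPM per GEM-BCC tumor, 10.4 to 82.0 CPM per Tp-BCC tumor), and skeletal muscle markers reached 114 CPM in TP4, against at most 8.1 CPM in any other tumor.

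**Figure D4:**
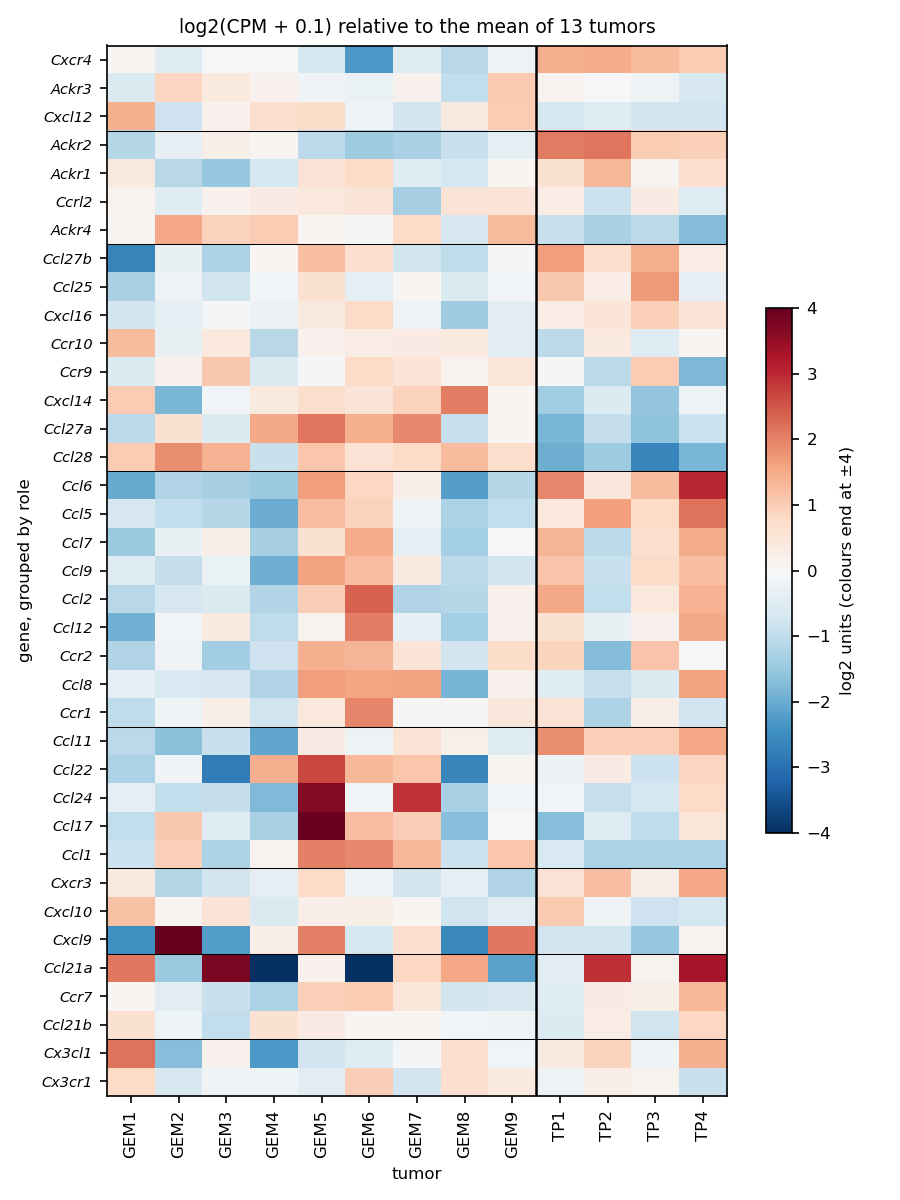
Heat map of log2(CPM + 0.1) of 37 of the 38 tested genes relative to their mean over 13 tumors (rows, grouped by role; columns, tumors, with a line between the models), in colors that end at ±4. The ligands of monocytes and macrophages in the middle rows are above their mean in GEM5, GEM6 and TP4, and Cxcl9 is highest in GEM2.

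Genes that carry the signal of chemokine receptors inside the cell, a list of 43 genes of G proteins, arrestins, kinases and Rac activators, were counted the same way. Of the 42 tested, 12 rose and 2 fell, against 11.1% and 8.35% of all tested genes, with a median log2 fold change of 0.39, against −0.03 over all genes. Plcb2, a phospholipase activated by G proteins of leukocytes, had the largest rise, from 0.752 ± 0.339 CPM (SD, n = 9) to 5.21 ± 1.02 CPM (SD, n = 4), or by 2.78 on the log2 scale (SE 0.39, adjusted p = 0.000224). Fgr, a myeloid kinase, rose from 1.23 ± 1.09 to 6.03 ± 3.35 CPM (2.29, SE 0.54, adjusted p = 0.00881), and Vav3, an activator of small G proteins, fell from 25.2 ± 18 to 6.05 ± 4.62 CPM (−2.05, SE 0.64, adjusted p = 0.0361). The remaining genes that rose were Dock2, Prex1, Pik3r5, Arrb1, Elmo1, Grk5, Gnb2, Gnai2, Rac1 and Arrb2 (0.60 to 1.82), and Pik3cg, the kinase subunit activated by these receptors, fell (−1.85, SE 0.48, adjusted p = 0.0141). Without TP2 only 7 of the genes passed. Of 9 tested genes for chemokine-related ligands and receptors outside the family, Cmklr1, the receptor of chemerin, rose from 24.8 ± 6.81 to 71.1 ± 31.0 CPM (1.52, SE 0.26, adjusted p = 0.00113) and the other 8 did not pass.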

How the data were processed

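RNA was sequenced from 13 tumors, 9 GEM-BCC and 4 Tp-BCC. Per the study's methods, the authors cleaned reads with SOAPnuke, aligned them with Bowtie2 2.3.4.3 to the NCBI mouse genome release GRCm39 and quantified them with RSEM 1.3.1 in strand-specific mode. The deposited values are RSEM expected counts per gene symbol, not normalized and sometimes fractional, because reads that fit several genes are divided between them. The reason why some genes lack values is not given in the sources used here.

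Expected counts were rounded (R 4.3.3). A gene was tested where all 13 tumors had a value and 4 or more had 10 or more counts, with edgeR 4.0.16 (TMM scaling, robust quasi-likelihood F test, no covariate) and Benjamini-Hochberg adjustment over all tested genes. CPM use TMM-scaled totals and log2 CPM a prior count of 2. The SE is the size of the log2 fold change divided by the square root of F. P-values measure the spread between tumors, some of which share a mouse. Permutation tests were exact over 715 arrangements of tumors (Python 3.11.15, scipy 1.17.1). The fit was tested on simulated counts with 200 changed genes.

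The genes, their roles and the marker and signaling lists were chosen with earlier results of these data known. Full values are given for genes that passed and for up to 3 best-expressed tested genes in each role, and for up to 3 genes with the largest change in each signaling list; others are named by fold change or highest count. Of the tested genes 1 is counted but not reported here. Alternatives were DESeq2 1.42.0 or its size factors, total counts, a stricter or no filter, a fit without robust estimation, counts summed per mouse, missing values set to 0, a GC correction (lowess span 0.3), a replicate block, a fold threshold of 1 and each tumor left out. Alternatives chosen after seeing the data were summed gene copies, GEM1, TP2 and TP4 left out, and the GC correction with replicate block. Promoters came from RefSeq (GRCm38.p6) and transcript lengths from GENCODE vM21, a build other than the authors', used for names, lengths and sequence alone.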

Additional observations from a re-analysis of the deposited data

Results flagged for a closer look

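The highest and lowest tumor of each model were set against the others on a log2 scale. In 5 of 76 groups of values (38 genes in 2 models) such a tumor lay far from the others, where chance gives about 1 in 20. Cxcr4 was lowest in GEM6 at 16.4 CPM (548 counts), far below the other 8 GEM-BCC tumors, and Ccr1 was highest in the same tumor at 4.34 CPM (145 counts). Ccl28 was lowest in GEM4 at 0.231 CPM (7 counts). Among Tp-BCC tumors, Ccl8 was highest in TP4 at 27.5 CPM (385 counts). The single Ccl1 count was in TP1 (0.0589 CPM), and this group was flagged only because the other Tp-BCC tumors all had 0 counts.

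Among genes with values in the GEM-BCC tumors alone, which entered no comparison, 3 exceeded 3 counts in a tumor. Ccr4 had 10 counts in GEM7, Cxcl11 had 4 in GEM5, and Ccl21c had 55.25 in GEM3. The last value is fractional, so some of its reads were divided between genes, and whether these were the other Ccl21 copies is not known.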

How the results depend on the processing

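The count of 9 genes that passed fell to 0 with the replicate block, in which the number in a tumor's name was a block, to 3 with the GC correction and the replicate block together and to 4 without GEM1, TP2 and TP4. It ran from 4 (without TP1) to 10 when 1 tumor was left out and was 5 without GEM9 or TP2. The 5 called genes became 3 with total counts, 3 with the stricter filter, 0 with the replicate block, 1 with GC correction and block, 2 without GEM1, TP2 and TP4 and 9 at a fold threshold of 1, and 3 to 7 when 1 tumor was left out (3 without GEM2, GEM4, GEM9, TP1, TP2 or TP4). Same-numbered tumors had correlations of −0.381 to −0.101, none of the Tp-BCC tumors correlated best with the GEM-BCC tumor of its number, and the numbers name unrelated tumors. DESeq2 passed 12 genes, including Ccl1, Ccl5 and Ccl25. The GC correction passed 11, including Ccl1, Ccl25 and Cxcl16 but not Cxcl12. The difference in genes reaching 10 counts turned to −3.97 without thinning, as the deeper GEM-BCC libraries then count more, and was 1.81 to 3.68 with 1 tumor left out. The count of signaling genes was 7 (without TP2) to 14.

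The genes whose direction turned had not passed. With the block, the log2 fold changes were 0.16 for Ccr1, 0.79 for Ccl22, 0.53 for Ccl8 and 1.01 for Ccl24, and with GC correction and block 0.54, 0.82, 0.73 and 1.03. With the GC correction alone Cxcl10 was 0.021 and Ccl8 0.58. Without GEM1, TP2 and TP4 the values were 0.21 for Ccr9, −0.16 for Ccr7, 0.50 for Cxcl10, −1.49 for Ccl21a and 0.14 for Ccrl2. Per mouse Ccr2 was −0.033. With 1 tumor left out the ranges were −0.42 to 0.21 for Ccl21b, −0.29 to 0.42 for Ccr2, −0.063 to 0.695 for Ccr7, −0.98 to 0.11 for Cxcl10 and −0.074 to 1.065 for Ccl12. The cause was not tested. Apart from the block, alone or with the GC correction, Cxcr4, Ackr2 and Ccl28 passed under every alternative that tested them, and Ackr4 under all but the one without GEM1, TP2 and TP4 (−1.74, adjusted p = 0.0624). With the stricter filter Ccl28 and Ccl11 were not tested. Tp-BCC libraries hold fewer counts, which limits genes near 10 counts there.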
